A study of Mus musculus with 8 samples.

Results

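This account covers 10 mouse liver genes of cell-cycle arrest and the stress response: Cdkn1a, Mdm2, Ccng1, Btg2, Gadd45a, Gadd45b, Gadd45g, Ccnd1, Trp53inp1 and Phlda3. They were taken by symbol from the 38283 genes of the deposited expression table, and every one of the 10 had a row. The set was chosen from gene levels and fold changes by genotype and diet in these same 8 libraries, so the values below describe the 10 genes and are no evidence for the choice of them. RNA was sequenced from livers of male C57BL/6 mice in 4 groups. Each group had 2 libraries, with 2 mice pooled in each. In RORα f/f mice, loxP sites flank exons of Rora, the gene of the nuclear receptor RORα. RORα LKO littermates carry the same floxed alleles plus Cre driven by the albumin promoter, which acts in hepatocytes. Deletion in other liver cells was not tested. Mice of both genotypes received a control diet (CD) or a high-fat diet (HFD, 60% of calories from fat) for 10 weeks from 8 weeks of age. The groups are called f/f CD, LKO CD, f/f HFD and LKO HFD.

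The tumour suppressor p53 switches on Cdkn1a, whose product p21 inhibits cyclin-dependent kinases and holds cells in G1. Mdm2, Ccng1, Btg2, Gadd45a, Trp53inp1 and Phlda3 are also known p53 targets: MDM2 marks p53 for degradation, cyclin G1 recruits a phosphatase to MDM2, BTG2 is an antiproliferative protein that promotes mRNA deadenylation, TP53INP1 acts in stress responses and autophagy, and PHLDA3 restrains AKT. The GADD45 proteins are small stress sensors that bind MAP3K4 upstream of p38 and JNK, while Ccnd1 encodes cyclin D1, which drives cells out of G1 and is held low in resting hepatocytes. In liver, p21 is also known to follow the circadian clock through ROR and REV-ERB receptors.

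The sequence just upstream of a start site is shown for Cdkn1a, Gadd45g and Btg2, which differed between diets in the tests below. That of Gadd45b is shown for comparison with Gadd45g. Each is the 250 bases before a RefSeq start on GRCm38.p6, written 5′ to 3′ on the strand of the gene. The RefSeq table used here gave 9 such windows for 8 of the 10 genes. Windows of Ccnd1 and Trp53inp1 were not used here. Cdkn1a (plus strand of chromosome 17, gene body 29090976 to 29100727, protein coding) has 2 windows, and the start of the second lies inside the gene body. In the first, chr17:29090729-29090978, capitals mark matches to the p53 half-site, and in the second, chr17:29093519-29093768, they mark GGGCGG, the GC box bound by SP1-type factors.
Cdkn1a, first start: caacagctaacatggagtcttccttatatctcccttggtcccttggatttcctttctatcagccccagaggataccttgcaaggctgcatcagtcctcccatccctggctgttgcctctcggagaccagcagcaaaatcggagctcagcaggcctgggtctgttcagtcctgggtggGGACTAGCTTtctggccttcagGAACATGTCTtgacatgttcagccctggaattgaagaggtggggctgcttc
Cdkn1a, second start: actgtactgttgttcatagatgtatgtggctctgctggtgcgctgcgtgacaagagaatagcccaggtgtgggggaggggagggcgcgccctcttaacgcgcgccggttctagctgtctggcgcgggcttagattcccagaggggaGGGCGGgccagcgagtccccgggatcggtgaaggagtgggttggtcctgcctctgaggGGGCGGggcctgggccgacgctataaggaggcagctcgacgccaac

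Gadd45g (plus strand of chromosome 13, gene body 51846678 to 51848468) and Gadd45b (plus strand of chromosome 10, gene body 80930073 to 80932204) are shown as a pair of the same family. Their windows are chr13:51846425-51846674 and chr10:80929841-80930090. Capitals mark CACGTG, the E-box read by CLOCK, BMAL1 and MYC, and TATAAA, the TATA box.
Gadd45g: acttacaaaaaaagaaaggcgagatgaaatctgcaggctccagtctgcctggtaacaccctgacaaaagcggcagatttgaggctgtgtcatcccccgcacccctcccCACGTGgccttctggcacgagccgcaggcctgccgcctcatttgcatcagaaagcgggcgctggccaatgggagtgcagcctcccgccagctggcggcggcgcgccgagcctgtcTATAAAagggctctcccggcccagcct
Gadd45b: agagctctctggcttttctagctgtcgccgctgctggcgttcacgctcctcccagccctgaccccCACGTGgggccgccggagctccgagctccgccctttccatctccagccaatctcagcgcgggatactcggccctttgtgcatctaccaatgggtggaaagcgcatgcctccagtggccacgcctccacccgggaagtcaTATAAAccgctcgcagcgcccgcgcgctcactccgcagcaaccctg

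Btg2 lies on the minus strand of chromosome 1 (gene body 134075170 to 134079120), and its window is chr1:134079156-134079405. Capitals mark TGACGTCA, the cAMP response element, AGGTCA, the core bound by nuclear receptors, which here lies on the opposite strand and reads TGACCT, and GGGCGG.
Btg2: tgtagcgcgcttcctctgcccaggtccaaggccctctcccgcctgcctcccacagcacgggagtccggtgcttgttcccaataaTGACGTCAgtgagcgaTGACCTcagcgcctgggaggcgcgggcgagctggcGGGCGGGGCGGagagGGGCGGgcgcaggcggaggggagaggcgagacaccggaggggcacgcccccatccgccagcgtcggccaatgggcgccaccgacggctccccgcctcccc

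Both strands were searched, GGGCGG matches may overlap one another, and opposite-strand GGGCGG and all CCAAT matches are left in lower case. The p53 half-site was found in 4 of the 9 windows, those of Gadd45a, Mdm2, Ccng1 and the first Cdkn1a start, and in 7.13% of 32851 windows of the same length. In Cdkn1a its 2 matches lay 73 to 64 and 51 to 42 bases before the start. CACGTG stood in 2 windows, 142 bases before the Gadd45g start and 185 before that of Gadd45b, against 6.02% of all windows, and these 2 windows were also the ones with TATAAA (12.4% of all). TGACGTCA was found in the Btg2 window alone of the 9 (1.55% of all). AGGTCA was also found there alone (14.0% of all), and its longer form TAGGTCA was found in 0 of the 9 windows and in 2.23% of all. ROR response elements have AGGTCA or GGGTCA after an A/T-rich stretch. GGGTCA and the full stretch were not searched for, so these matches do not show whether a window holds such an element. GGGCGG stood in 6 of the 9 and in 32.7% of all, and CCAAT in 6 of the 9 and in 33.8% of all. The windows had a median GC content of 64.8%, against 52.4% over all windows. Such matches describe letters and are not binding sites.

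Expression was given as FPKM, fragments scaled by transcript length and sequencing depth, so levels can be compared between genes. The files hold no read counts, so the depth behind each value is unknown here. In each library 10587 to 10706 genes exceeded an FPKM of 1. Spearman's rho was 0.969 to 0.975 within groups and 0.958 to 0.974 between them. Rora comes first, since it bears on the genotype labels. It stood at 8.85 and 8.59 FPKM in f/f CD, 7.96 and 8.18 in LKO CD, 7.56 and 7.86 in f/f HFD and 7.30 and 8.02 in LKO HFD. The LKO libraries were lower by little on CD and overlapped the f/f libraries on HFD. A value over the whole gene includes exons outside the deletion and so checks it weakly, and every direction below rests on the labels. By separate assays the study reported a marked loss of RORα mRNA and protein in LKO liver and primary hepatocytes. Hepatocyte markers summed to 16604 to 18298 FPKM over 9 of 10 genes. Of the 10, 5 passed for diet (9.89% of all genes did), as given with the other markers below. Alb, the remaining marker, was listed at 0 in 4 of the 8 libraries and at 29902 to 30888 in the others, so an exact 0 in this table can be a failed estimate. None of the 10 genes was listed at 0 in any library. Fewer cells of a type and less RNA per cell cannot be told apart in pooled liver.

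Tests were made with limma on quantile-normalized log2(FPKM + 1) over the 11634 genes that exceeded an FPKM of 1 in any library, with Benjamini-Hochberg adjustment over all of them. A log2 fold change below is on this scale, which understates changes of low values, and is given ± its standard error. FPKM is given as deposited. Of the 10 genes, 8 passed the filter, and Gadd45b and Phlda3, under 1 FPKM in every library, did not. P-values measure the spread between pooled libraries, and with 2 against 2 an exact permutation test could not go below 0.333.

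**Figure D1:**
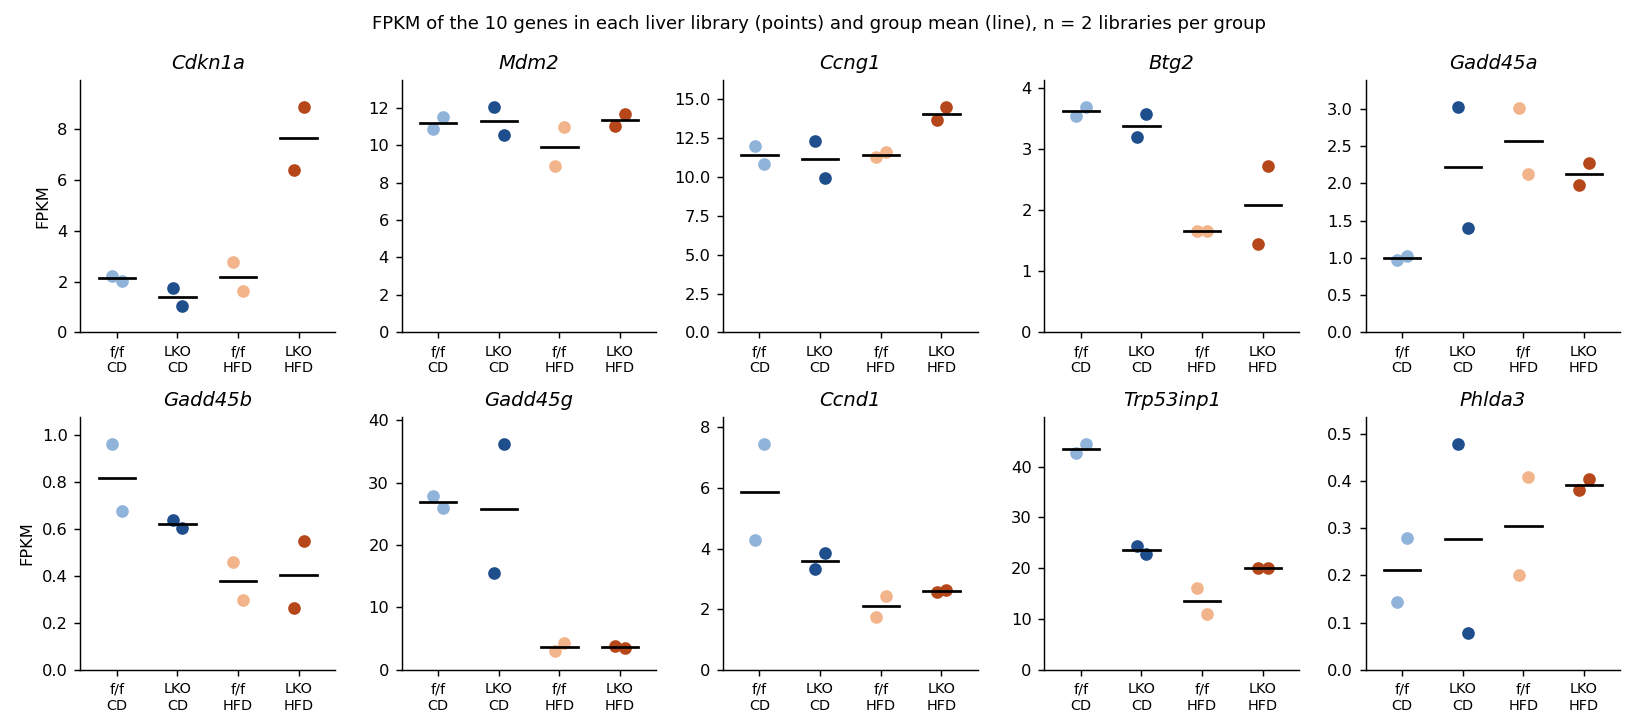
Each panel plots the FPKM of 1 gene (vertical axis, from 0) in the 8 liver libraries by group, with points for libraries and a line at the mean of n = 2. The LKO HFD libraries stand apart for Cdkn1a at 6.41 and 8.89. All 4 HFD libraries lie below all 4 CD libraries for Gadd45g, Btg2, Ccnd1, Trp53inp1 and Gadd45b, the last under 1 FPKM throughout.

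Cdkn1a, the p21 gene, was low in 3 groups and higher in the LKO livers on HFD. Its level was 2.24 and 2.03 FPKM in f/f CD, 1.75 and 1.04 in LKO CD, 2.76 and 1.63 in f/f HFD, and 6.41 and 8.89 in LKO HFD. Both LKO HFD libraries lay above the other 6, the 2 f/f groups overlapped, and both LKO CD libraries lay below both f/f CD libraries. The group means were 1.39 ± 0.500 (SD, n = 2) in LKO CD, 2.13 ± 0.149 in f/f CD, 2.20 ± 0.800 in f/f HFD and 7.65 ± 1.75 in LKO HFD. The means of the 2 f/f groups differed by less than their spread. LKO HFD was 3.48 times f/f HFD and 5.49 times LKO CD. Ranked among the genes tested, the mean of Cdkn1a was at percentile 22.9 in f/f HFD and 55.2 in LKO HFD.

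Between genotypes on HFD the log2 fold change of Cdkn1a was 1.46 ± 0.22, with an adjusted p of 0.144, and on CD it was -0.42 ± 0.22 with an adjusted p of 0.496. Neither passed. The difference of the genotype effect between the diets was 1.88 ± 0.31, with an unadjusted p of 0.000608 and an adjusted p of 0.354. From CD to HFD, Cdkn1a rose in the LKO livers by 1.89 ± 0.22 (adjusted p 0.0185) and had a log2 fold change of 0.00 ± 0.22 in f/f livers. These comparisons share libraries and are not independent of one another. The rise in LKO livers no longer passed when f/f CD 2 (adjusted p 0.0503), LKO CD 2 (0.0946), LKO HFD 1 (0.0683) or LKO HFD 2 (0.0992) was left out, and in a fit of the 4 LKO libraries alone it had an adjusted p of 0.123.

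Trp53inp1 was the most abundant of the 10 genes in 3 of the 4 groups, after Gadd45g in LKO CD, and its order of levels was f/f CD, LKO CD, LKO HFD and f/f HFD. It stood at 42.7 and 44.4 FPKM in f/f CD, 24.4 and 22.8 in LKO CD, 16.0 and 11.1 in f/f HFD, and 20.1 and 20.0 in LKO HFD. No 2 groups overlapped: the LKO libraries were lower than f/f on CD and higher than f/f on HFD. Trp53inp1 fell by 1.60 ± 0.15 on the log2 scale from CD to HFD in f/f livers (adjusted p 0.0152), and its log2 fold change in LKO livers was -0.20 ± 0.15 (adjusted p 0.486). That fall no longer passed when f/f CD 1 (adjusted p 0.0700), f/f CD 2 (0.112), LKO CD 2 (0.0539), LKO HFD 1 (0.0506) or LKO HFD 2 (0.0546) was left out, or in a fit of the 4 f/f libraries alone (0.162). For Trp53inp1 the genotype difference was -0.83 ± 0.15 on CD (adjusted p 0.161) and 0.57 ± 0.15 on HFD (adjusted p 0.318). The difference between those was 1.40 ± 0.21 (adjusted p 0.307). Without f/f HFD 1 that difference was 1.64 and passed, with an adjusted p of 0.0136.

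Ccng1, cyclin G1, was the only other of the 10 genes whose LKO HFD libraries were both above every other library. The same held for Ei24, Perp, Fas and Sulf2 among the other p53 targets tested, which are read further below. Its values were 12.0 and 10.9 FPKM in f/f CD, 12.3 and 9.94 in LKO CD, 11.3 and 11.6 in f/f HFD, and 13.7 and 14.5 in LKO HFD. The other 6 libraries overlapped. For Ccng1 the log2 fold change between genotypes was 0.30 ± 0.11 on HFD (adjusted p 0.444) and -0.01 ± 0.11 on CD, so the step on HFD was far smaller than that of Cdkn1a and did not pass.

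Mdm2, the ubiquitin ligase gene of the p53 feedback loop, had the narrowest range of the 8 genes tested. It measured 10.9 and 11.5 FPKM in f/f CD, 12.0 and 10.5 in LKO CD, 8.88 and 10.9 in f/f HFD, and 11.0 and 11.6 in LKO HFD. The LKO HFD libraries were both above the f/f HFD libraries, by a log2 fold change of 0.20 ± 0.11 (adjusted p 0.628), and no other pair of groups for which Mdm2 was compared stood apart. Trp53, the p53 gene itself, was 8.54 and 7.99 FPKM in f/f HFD and 6.38 and 7.32 in LKO HFD, a log2 fold change of -0.23 ± 0.11 that did not pass (adjusted p 0.576).

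Phlda3, the AKT inhibitor gene, was near the floor of the table. Its lowest library was LKO CD 2 at 0.0781 FPKM and its highest LKO CD 1 at 0.479, so the widest gap lay within 1 group. With no filter on low values its log2 fold changes ran from 0.03 to 0.14 over the 7 comparisons, and the lowest adjusted p was 0.618.

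**Figure D2:**
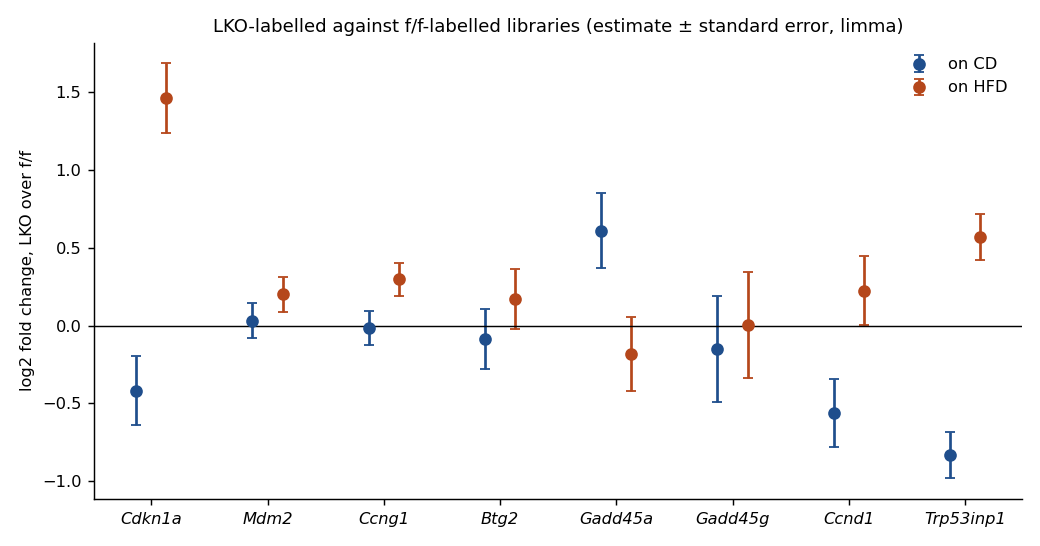
Points give the limma log2 fold change of LKO over f/f (vertical axis) on CD and on HFD for the 8 genes that passed the filter, with bars for ± 1 standard error. Cdkn1a lies at 1.46 on HFD and -0.42 on CD, and Ccnd1 and Trp53inp1 also lie above 0 on HFD and below 0 on CD.

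Counted over the genotype comparisons, 0 of the 8 genes passed an adjusted p of 0.05 with limma on HFD, where 0.043% of all genes did, or on CD (0.0172% of all genes), or for the difference between diets (0.0344%), or averaged over diets (0.103%). At an unadjusted p under 0.05, Cdkn1a, Trp53inp1 and Ccng1 were higher in LKO on HFD (5.46% of all genes were higher at that p), while on CD Gadd45a was higher and Trp53inp1 and Ccnd1 lower (12.3%). Cdkn1a, Trp53inp1 and Ccnd1 had an unadjusted p under 0.05 for the difference between diets (8.35%). Averaged over diets Cdkn1a alone did (13.5%). On HFD the LKO libraries lay above both f/f libraries for 5 genes, Cdkn1a, Trp53inp1, Ccng1, Ccnd1 and Mdm2, and below them for 0, against 19.1% and 23% of all genes. On CD they lay above for Gadd45a and below for Cdkn1a, Ccnd1 and Trp53inp1 (43.3% of all genes not overlapping). The median log2 fold change of the 8 genes was 0.21 on HFD and -0.12 on CD, against 0.00 for all genes tested in both.

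Gadd45g, a cytokine-inducible member of the family, showed the largest diet difference of the 10 genes, and it was the same in direction under both genotype labels. It measured 27.8 and 26.0 FPKM in f/f CD, 15.5 and 36.2 in LKO CD, 3.04 and 4.25 in f/f HFD, and 3.79 and 3.42 in LKO HFD. Every HFD library lay below every CD library, and the LKO CD libraries fell on either side of both f/f CD libraries. The mean on CD was 7.37 times that on HFD in f/f livers and 7.17 times in LKO livers.

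On the log2 scale Gadd45g fell by 2.56 ± 0.34 in f/f livers (adjusted p 0.0373), by 2.40 ± 0.34 in LKO livers (adjusted p 0.0249) and by 2.48 ± 0.24 averaged over genotypes (adjusted p 0.00450). The averaged fall passed whichever of the 8 libraries was left out. The fall of Gadd45g within f/f or within LKO passed only when LKO CD 1 or LKO CD 2 was the library left out. Without f/f CD 1 or 2, f/f HFD 1 or 2, or LKO HFD 1 or 2, the adjusted p was 0.0746 to 0.196 in f/f livers and 0.0537 to 0.131 in LKO livers. In fits of the 4 libraries compared alone it was 0.0896 and 0.141, and with no filter 0.0769 and 0.0629. The fall in f/f livers also missed without the trend (0.0546) and with replicate number blocked (0.0525). Between genotypes Gadd45g had a log2 fold change of 0.01 ± 0.34 on HFD and -0.15 ± 0.34 on CD.

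Gadd45a, the p53-regulated member, was low everywhere and was lowest in f/f CD. Its values were 0.970 and 1.02 FPKM in f/f CD, 3.03 and 1.40 in LKO CD, 3.01 and 2.13 in f/f HFD, and 1.98 and 2.27 in LKO HFD. Both f/f CD libraries lay below the other 6, which overlapped. For Gadd45a the log2 fold change from CD to HFD in f/f livers was 0.82 ± 0.24 (adjusted p 0.139), and that of LKO against f/f on CD was 0.61 ± 0.24 (adjusted p 0.370). With a pseudocount of 0.1 these were 1.25 and 0.94, and neither passed.

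Gadd45b was under 1 FPKM throughout, at 0.963 and 0.676 in f/f CD, 0.641 and 0.603 in LKO CD, 0.459 and 0.297 in f/f HFD, and 0.263 and 0.548 in LKO HFD. All HFD libraries were below all CD libraries, as for Gadd45g, at a much lower level. With no filter, over 20816 genes, the log2 fold change of Gadd45b averaged over genotypes was -0.31 ± 0.10 (adjusted p 0.160).

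**Figure D3:**
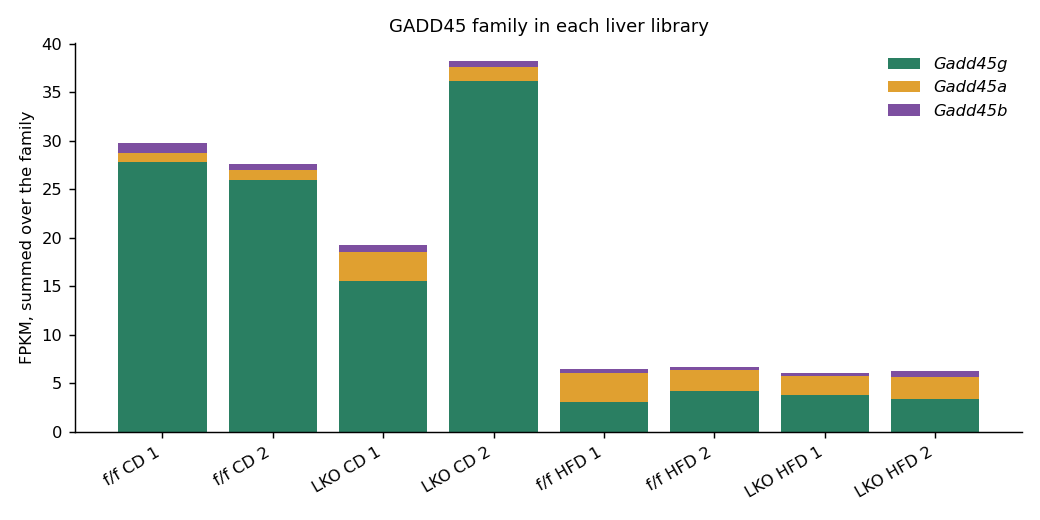
Stacked bars give the FPKM of Gadd45g, Gadd45a and Gadd45b (vertical axis, from 0) in each of the 8 libraries. The bars reach 19.2 to 38.2 on CD, almost all of it Gadd45g, and 6.04 to 6.68 on HFD, where Gadd45a takes a larger share.

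Since FPKM is scaled by length, the 3 GADD45 genes can be summed. Gadd45g made up 93.7% ± 0.253 (SD, n = 2) of the family sum in f/f CD and 87.8% ± 9.80 in LKO CD, then 55.2% ± 12.0 in f/f HFD and 58.8% ± 5.65 in LKO HFD. The sum itself went from 28.7 ± 1.48 FPKM in f/f CD to 6.59 ± 0.120 in f/f HFD, and from 28.7 ± 13.4 in LKO CD to 6.14 ± 0.144 in LKO HFD. Both the sum and the Gadd45g share were lower in every HFD library than in every CD library.

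Btg2 was lower on HFD under both labels. It measured 3.55 and 3.70 FPKM in f/f CD, 3.20 and 3.57 in LKO CD, 1.67 and 1.66 in f/f HFD, and 1.45 and 2.72 in LKO HFD. The 4 HFD libraries lay below the 4 CD libraries, and the genotypes overlapped on each diet. Averaged over genotypes, Btg2 fell by 0.65 ± 0.14 on the log2 scale (adjusted p 0.0328). The call rested on most libraries: it passed without LKO HFD 1 or LKO HFD 2 and did not pass without any of the other 6, with adjusted p up to 0.107 over all settings tried.

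Ccnd1, the cyclin D1 gene, was highest in f/f CD and lower on HFD. Its values were 4.30 and 7.45 FPKM in f/f CD, 3.34 and 3.84 in LKO CD, 1.75 and 2.45 in f/f HFD, and 2.56 and 2.65 in LKO HFD. The groups did not overlap, with LKO below f/f on CD and above f/f on HFD, but the 2 f/f CD libraries differed from each other by more than any 2 neighbouring groups' means. Averaged over genotypes, Ccnd1 fell by 0.71 ± 0.16 on the log2 scale (adjusted p 0.0376), and this passed only when f/f CD 1 was the library left out (adjusted p up to 0.117 without any other). In f/f livers alone the log2 fold change of Ccnd1 was -1.10 ± 0.22 (adjusted p 0.0681), and in LKO livers it was -0.31 ± 0.22. The genotype differences were -0.56 ± 0.22 on CD (adjusted p 0.370) and 0.23 ± 0.22 on HFD (adjusted p 0.785).

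**Figure D4:**
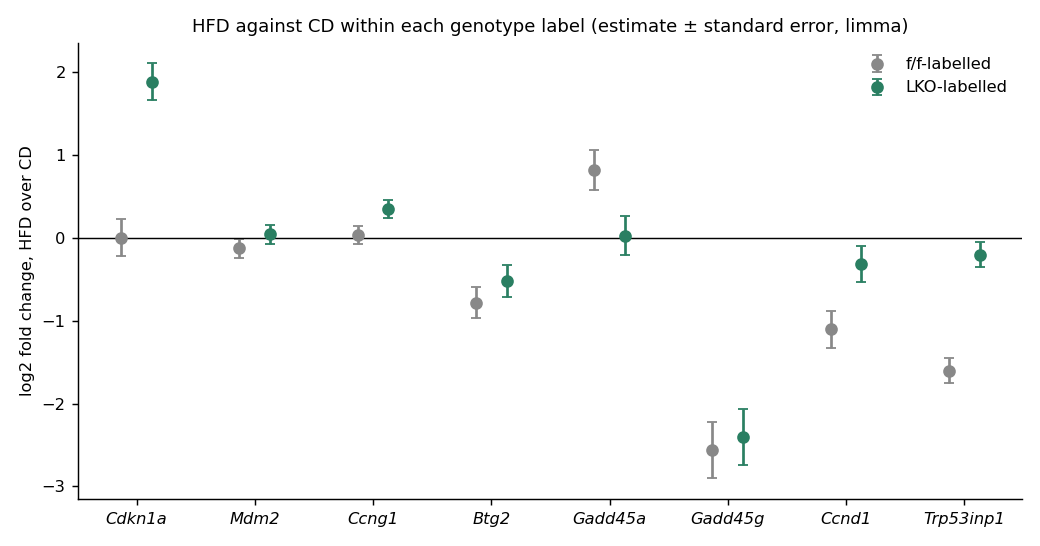
Points give the limma log2 fold change of HFD over CD (vertical axis) in f/f-labelled and LKO-labelled libraries for the 8 genes that passed the filter, with bars for ± 1 standard error. Gadd45g lies at -2.56 and -2.40, Cdkn1a at 0.00 in f/f and 1.89 in LKO, and Trp53inp1 at -1.60 in f/f and -0.20 in LKO.

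Averaged over genotypes, 5 of the 8 genes passed for diet with limma, where 9.89% of all genes did: Gadd45g, Trp53inp1, Btg2 and Ccnd1 fell and Cdkn1a rose. The averaged fall of Trp53inp1 was by 0.90 ± 0.10 (adjusted p 0.00677) and passed whichever library was left out. The averaged rise of Cdkn1a was 0.95 ± 0.16 (adjusted p 0.0174), was carried by the LKO livers, and did not pass without f/f CD 1, f/f CD 2, LKO CD 2, f/f HFD 1 or LKO HFD 2, with adjusted p up to 0.0708. In f/f livers Gadd45g and Trp53inp1 passed (1.33% of all genes), and in LKO livers Cdkn1a and Gadd45g did (3.02%). For 4 of the 8 genes every HFD library lay below every CD library (10.3% of all genes). The median log2 fold change of the 8 genes was -0.34, against 0.01 for all genes tested.

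Over the 8 libraries, on the normalized log2 scale, the levels of the 8 genes moved in a few patterns, given here as a description of libraries that share their groups and depth. Pearson's r was 0.89 between Cdkn1a and Ccng1, 0.87 between Btg2 and Gadd45g, 0.84 between Ccnd1 and Trp53inp1, and -0.81 between Gadd45a and Ccnd1. Mdm2 had its highest r, 0.48, with Ccng1. Among 5943 genes with FPKM above 5 in every library, those most like Cdkn1a were Dnaja3 (r = 0.96), Umad1 (0.95), Hspb6 (0.95), Synj2bp (0.95) and Skp1a (0.94). Their range was narrow beside that of Cdkn1a: the mean of Dnaja3 was 41.9 FPKM in f/f HFD and 44.8 in LKO HFD, and that of Umad1 11.7 and 15.3. Those most like Ccnd1 were Ddx3x (r = 0.98), Ostc (0.98), Tra2a (0.97), Sec11c (0.96) and Arfip1 (0.95). The mean of Ostc, a subunit gene of the oligosaccharyltransferase, was 34.1 FPKM in f/f CD, 27.9 in LKO CD, 24.1 in f/f HFD and 24.8 in LKO HFD.

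The other genes of the pathway were read from lists compiled by hand. Of 34 other p53 targets, 25 were tested, and 0 passed between genotypes on HFD with limma, while 5 had an unadjusted p under 0.05, all higher in LKO (5.46% of all genes were). Their median log2 fold change was 0.09, and the LKO HFD libraries lay above f/f HFD for 13 and below for 3, where 19.1% and 23% of all genes did. The largest were Sulf2, a heparan sulfatase (0.53 ± 0.14), Fas, the death receptor (0.50 ± 0.16), and Bbc3, the PUMA gene (0.44 ± 0.21), with adjusted p of 0.324 to 0.567. Averaged over genotypes, 2 of the 25 rose on HFD and 3 fell, where 9.89% of all genes passed for diet. Ei24 rose by 0.42 ± 0.07 (adjusted p 0.0213) and Dcxr by 0.35 ± 0.07, while Plk3, a stress-activated kinase, fell by 1.42 ± 0.28 (adjusted p 0.0263), Ephx1, the microsomal epoxide hydrolase, fell by 0.43 ± 0.07 (adjusted p 0.0141) and Ercc5 fell by 0.26 ± 0.06. The level of Plk3 in LKO CD was 19.2 and 36.8 FPKM, a gap of the same order as that of Gadd45g between the same libraries. Of 15 genes for p53 and its regulators, 11 were tested and 0 passed for genotype on HFD or for diet averaged over genotypes (2 and 4 at an unadjusted p under 0.05, where 9.58% and 27.9% of all genes were). On HFD Ppp1r13l, the iASPP gene, was at -0.42 ± 0.20 and Hipk2, a p53 kinase, at 0.30 ± 0.09.

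**Figure D5:**
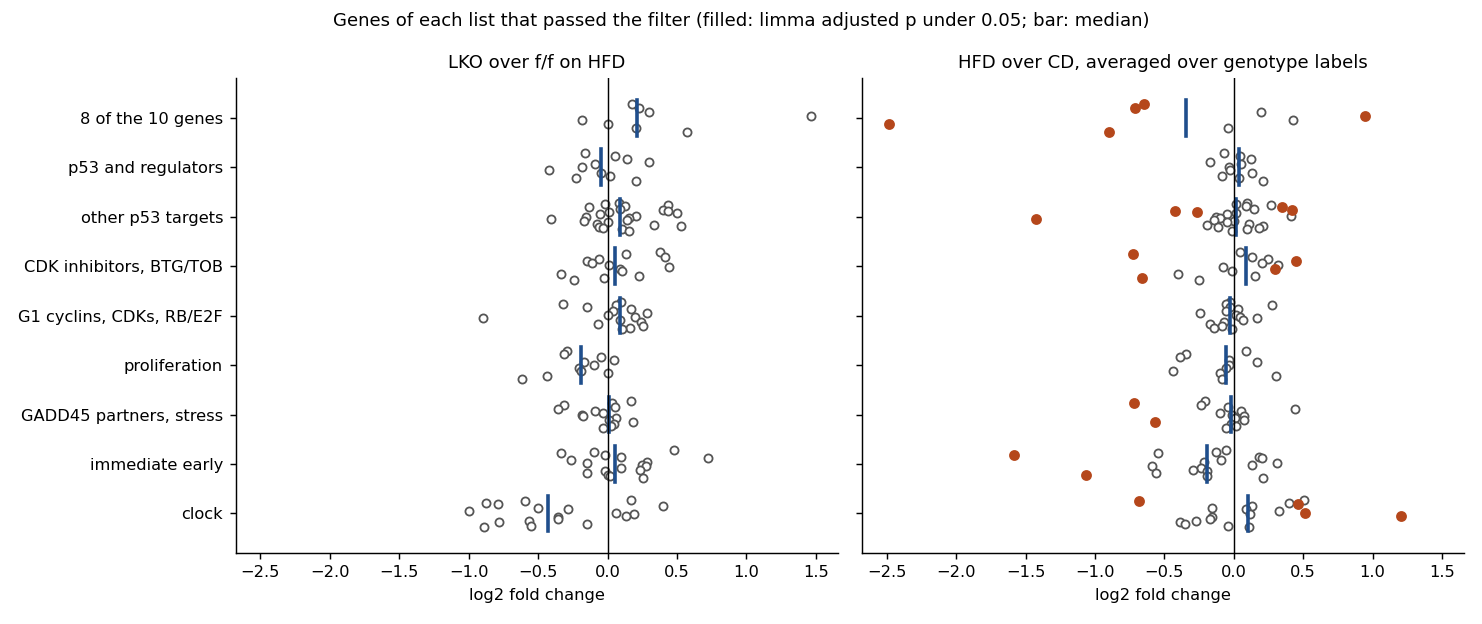
Each circle is the limma log2 fold change (horizontal axis) of 1 tested gene of a list, filled where the adjusted p was under 0.05, with a bar at the median of the list; the left panel is LKO over f/f on HFD and the right panel HFD over CD averaged over genotype labels. No circle is filled on the left, and on the right 5 of the 8 genes and 17 of the list genes are.

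Among other inhibitors of proliferation, Ccng2, cyclin G2, stood at 5.48 and 5.43 FPKM in f/f CD, 4.29 and 4.62 in LKO CD, 4.62 and 4.45 in f/f HFD, and 6.42 and 6.26 in LKO HFD, so that both LKO HFD libraries lay above the other 6, as for Cdkn1a. In LKO livers Ccng2 rose on HFD by 0.46 ± 0.08 (adjusted p 0.0325). Of 19 CDK inhibitor, BTG/TOB and related genes, 14 were tested and 0 passed on HFD between genotypes with limma (3 at an unadjusted p under 0.05, all higher, against 5.46% of all genes). These 3 were G0s2, whose product inhibits the lipase ATGL, at 0.44 ± 0.10, Ccng2 at 0.41 ± 0.08, and Btg1 at 0.38 ± 0.11, with adjusted p of 0.205 to 0.350. With diet averaged over genotypes, Btg3 fell by 0.73 ± 0.16 (adjusted p 0.0402) and Tob1 fell by 0.66 ± 0.10 (adjusted p 0.0136). Gas1 rose by 0.30 ± 0.07. Its libraries overlapped between diets, at 4.25 to 6.50 FPKM on CD and 6.33 to 7.21 on HFD. Cdkn1c, the p57 gene, was at 0.45 ± 0.11 (adjusted p 0.0497). Its level was 0.348 to 0.576 FPKM on CD and 0.854 to 1.27 on HFD. Only f/f HFD 2 exceeded 1 FPKM, so Cdkn1c entered the fit through the diet where it was higher. That call is therefore no evidence of a change. Tob1 and Btg3 belong to the same BTG/TOB family as Btg2.

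Cell-cycle genes were low in these livers. Of 26 proliferation genes 11 were tested, 0 passed in either comparison with limma (2 and 3 at an unadjusted p under 0.05, against 9.58% and 27.9% of all genes), and their summed level was 36.6 to 39.4 FPKM in LKO HFD, below the 44.3 to 45.6 of f/f HFD. On HFD Wee1, a kinase that delays mitosis and follows the clock, was at -0.61 ± 0.16, Tyms, thymidylate synthase, at -0.43 ± 0.15, and Cdk1 at -0.31 ± 0.23, with adjusted p of 0.321 to 0.709. For diet averaged over genotypes Rrm2 was at -0.44 ± 0.14 and Cenpa at -0.39 ± 0.10, which did not pass (adjusted p 0.0917 and 0.0605). Of 21 G1 cyclin, CDK, RB and E2F genes 16 were tested and 0 passed in either comparison (1 and 2 at an unadjusted p under 0.05, against the same shares). Their largest differences on HFD were those of E2f3 (-0.90 ± 0.44), Ccne2 (-0.32 ± 0.22) and Cdk6 (0.29 ± 0.12), and for diet E2f6 was at -0.17 ± 0.08.

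Of 17 GADD45 partners and stress genes 15 were tested. On HFD 0 passed between genotypes with limma (2 at an unadjusted p under 0.05, both lower, against 4.12% of all genes), where the p38 pathway genes Map2k3, Mapk12 and Mapk14 were at -0.31 ± 0.09, -0.19 ± 0.16 and -0.18 ± 0.06. For diet averaged over genotypes, Ppp1r15a, the GADD34 gene, fell by 0.57 ± 0.11 (adjusted p 0.0287) and Ddit4, the REDD1 gene, fell by 0.72 ± 0.17 (adjusted p 0.0446). The libraries of Ddit4 overlapped between diets. It stood at 10.7 and 8.22 FPKM in f/f CD and at 2.33 to 4.16 in all other libraries, LKO CD among them. Immediate-early genes respond fast to stress and handling. Of 18 tested, 2 fell on HFD, near the 9.89% of all genes that passed: Dusp1 by 1.58 ± 0.09 (adjusted p 0.000805) and Nr4a1 by 1.07 ± 0.10 (adjusted p 0.00360), while Csrnp1 was at -0.54 ± 0.14 (adjusted p 0.0529). Dusp1 stood at 19.3 to 28.8 FPKM in the CD libraries and at 6.24 to 8.48 on HFD. It thus separated the same libraries as Gadd45g, Btg2 and Plk3. Nr4a1 exceeded 1 FPKM only in LKO CD (2.89 and 3.20) and was at 0.238 to 0.925 elsewhere. It entered the fit through a group where it was high, so its call is no evidence of a change. On HFD 0 of the 18 passed between genotypes (1 at an unadjusted p under 0.05, against 9.58% of all genes), with Egr1 at 0.73 ± 0.27, Ccn1 at 0.48 ± 0.27 and Csrnp1 at -0.33 ± 0.19.

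Of 19 clock genes 18 were tested, and 0 passed with limma between genotypes on HFD, on CD, for the difference or averaged over diets. On HFD their median log2 fold change was -0.43, and the LKO libraries lay below f/f for 12 and above for 1, where 23% and 19.1% of all genes did. At an unadjusted p under 0.05, 10 were lower and 1 was higher, against 4.12% and 5.46% of all genes. Dbp, a clock output gene, was at 72.3 and 58.5 FPKM in f/f HFD and 28.5 and 36.2 in LKO HFD (adjusted p 0.144). On the log2 scale Usp2 was at -0.89 ± 0.21 and Bhlhe41 at -0.88 ± 0.30. For diet averaged over genotypes 4 of the 18 passed, against 9.89% of all genes. Nr1d1, the REV-ERBα gene, rose by 1.20 ± 0.10 (adjusted p 0.00358), Hlf by 0.51 ± 0.07 (adjusted p 0.0105) and Ciart by 0.46 ± 0.11 (adjusted p 0.0427), Bhlhe40 fell by 0.68 ± 0.15 (adjusted p 0.0376), and Arntl was at 0.51 ± 0.19 (adjusted p 0.144). Arntl exceeded 1 FPKM only in f/f HFD 1 (1.13) and LKO HFD 1 (1.93), and was at 0.219 to 0.587 on CD. It entered the fit through the diet where it was higher, so its value is no evidence of a change. Nr1d1 stood at 23.7 to 28.1 FPKM on CD and 48.3 to 65.6 on HFD, with no overlap. Ciart and Bhlhe40 overlapped between diets. Ciart was at 8.82 to 17.8 FPKM on CD and 11.9 to 25.9 on HFD, and Bhlhe40 at 30.9 to 60.9 and 22.8 to 37.5. The part of the clock genes and of the immediate-early genes in the differences of Cdkn1a, Gadd45g and the other members was not tested.

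Markers of other cells were read beside these values. Kupffer cell and macrophage markers summed to 112 FPKM in LKO HFD 1, 80.4 in LKO HFD 2 and 64.9 to 77.5 in f/f HFD. On the log2 scale 8 of 8 tested genes were above 0 (median 0.39), against 5718 of all 11634 genes. Of the 8, 0 passed and 3 were higher at an unadjusted p under 0.05, against 5.46% of all genes. The LKO HFD libraries lay above both f/f HFD libraries for 4 of the 8, against 19.1% of all genes. On CD 1 of the 8 was above 0 (median -0.25), against 5717 of all 11634 genes. The sums were 80.2 to 84.1 in LKO and 83.1 to 109 in f/f. The genotype difference on HFD minus that on CD was above 0 for 8 of 8 (median 0.64), against 5921 of all 11634 genes. For this difference 0 of the 8 passed and 3 had an unadjusted p under 0.05, against 8.35% of all genes. Of 8 adipocyte markers 3 were tested, and the list summed to 21.4 to 24.5 FPKM in LKO HFD and 11.3 to 13.1 in f/f HFD. That sum was made up by Fabp4, Cfd and Cidec, the last a lipid droplet gene that fatty hepatocytes also express, while the defining markers Adipoq, Lep and Plin1 were at or below 0.377 FPKM in all 8 libraries. Endothelial markers summed to 54.7 to 69.2 FPKM in LKO HFD and 61.4 to 65.5 in f/f HFD, stellate and fibroblast markers to 76.0 to 97.3 and 71.8 to 95.5, and cholangiocyte markers to 19.1 to 21.2 and 17.9 to 25.9. Lymphocyte markers summed to at most 4.87 FPKM in any library. Erythroid markers ran from 65.8 FPKM in f/f HFD 1 to 502 in LKO CD 2. The part of the macrophage and adipocyte-list genes in the differences of Cdkn1a, Trp53inp1 and Ccnd1 was not tested.

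Some markers also differed between diets, as Gadd45g, Trp53inp1, Btg2 and Ccnd1 did. The counts below stand beside those of all genes averaged over genotypes. Of these, 9.89% passed for diet, 27.9% had an unadjusted p under 0.05, and 6135 of 11634 were above 0. Stellate and fibroblast markers summed to 41.2 to 64.6 FPKM on CD and 71.8 to 97.3 on HFD, with no overlap. Most of that sum was Dcn, at 26.4 to 45.3 FPKM on CD and 52.5 to 72.2 on HFD. Over the list the median log2 fold change was 0.04, with 6 of 9 genes above 0. Of 9 tested, 2 rose averaged over genotypes, Dcn, decorin, by 0.78 ± 0.15 (adjusted p 0.0283) and Reln, reelin, by 0.62 ± 0.12 (adjusted p 0.0292). Endothelial markers overlapped, at 46.3 to 59.4 FPKM on CD and 54.7 to 69.2 on HFD. Of the endothelial markers, 8 of 8 were above 0 and 1, Lyve1, rose, by 0.76 ± 0.14 (adjusted p 0.0213). Of 10 hepatocyte markers 4 rose and 1 fell on the normalized scale. In FPKM as deposited, all HFD libraries lay below all CD libraries for Tat, Cps1, Serpina1a and Apoa1, and above for Cyp2e1 alone. Over all genes, 10.3% lay below and 723 of 11634 above. With limma Cps1 was at -0.30 ± 0.08 (adjusted p 0.0668) and Serpina1a at -0.26 ± 0.08 (adjusted p 0.0859), while Apoa1 was at 0.02 ± 0.08. Tat, tyrosine aminotransferase, fell by 1.14 ± 0.12 (adjusted p 0.00606), from 480 to 1036 FPKM on CD to 250 to 322 on HFD, and Cyp2e1 rose by 0.92 ± 0.07 (adjusted p 0.00313). The others that rose, Ttr, Hnf4a and Fah, did so on the normalized scale, while their FPKM as deposited overlapped between diets, as for Ttr at 3994 to 4541 on CD and 4034 to 4302 on HFD. Fabp4 of the adipocyte list rose by 0.37 ± 0.08 (adjusted p 0.0332) and Alas2 of the erythroid list fell by 0.56 ± 0.07 (adjusted p 0.00936). Of the macrophage, lymphocyte and cholangiocyte lists 0 passed with limma (1, 0 and 0 at an unadjusted p under 0.05). The part of these cells in the diet differences was not tested.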

How the data were processed

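Liver RNA was sequenced in 8 libraries, 2 for each combination of genotype (RORα f/f or LKO) and diet. Per the labels and Methods, the authors removed adapters with cutadapt 1.0, aligned reads to GRCm38 with TopHat2 2.0.7 and estimated expression with Cufflinks (version not given in the sources used here). The deposited values are FPKM, computed by the authors per gene and library, not on a log scale. FPKM is scaled to sequencing depth, so a transcript that takes many fragments can lower the others, and isoform assignment can leave a gene at 0. The summed FPKM of a library is not fixed. It ran from 732622 in LKO HFD 1 to 983738 in f/f CD 2. One short-RNA gene took 18.7% of the summed FPKM of f/f CD 2. Reads and counts were not used here.

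Symbols were matched by Ensembl identifier to GENCODE M21 (36341 of 38283). Genes that exceeded an FPKM of 1 in any library entered the fit, with a pseudocount of 1, and log2 values were quantile normalized, after the Methods. limma 3.58.1 in R 4.3.3 fitted all 4 groups with a mean-variance trend (4 residual degrees of freedom, to which moderation added 2.80) and Benjamini-Hochberg adjustment over all 11634 genes within each of 7 comparisons. Groups came from the labels. The steps were tested on simulated data. The regrouping test of the Methods was not run. Figures used matplotlib 3.10.9.

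The 10 genes and all lists were chosen with earlier results of these data known. All 10 are named. From each pathway list the text names up to 3 genes, ranked by the size of the log2 fold change, among those whose libraries did not overlap, for LKO against f/f on HFD and for HFD against CD averaged over genotypes, and the 5 genes most like Cdkn1a and Ccnd1. Other genes named because they passed (Dcxr, Ercc5, Gas1, Ddit4, Ciart, Bhlhe40) were picked after their values were seen. So were Perp, Alb, Ttr, Hnf4a, Fah, Tat, Cyp2e1, Cps1, Serpina1a, Apoa1, Dcn, Reln, Lyve1, Alas2, Adipoq, Lep, Plin1, Fabp4, Cfd and Cidec. Gadd45b, under the filter, got no list of like genes.

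Alternatives were no normalization, median centring, a pseudocount of 0.1, no filter, a filter asking for FPKM above 1 in every library, the replicate block, limma without the trend, only the libraries compared, and each library left out in turn.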

Additional observations from a re-analysis of the deposited data

Results flagged for a closer look

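Cdkn1a, Trp53inp1 and Ccnd1 drew attention because both LKO libraries lay above both f/f libraries on HFD and below both on CD. The genotype difference on HFD minus that on CD was 1.88 on the log2 scale for Cdkn1a, 1.40 for Trp53inp1 and 0.79 for Ccnd1. Tested as an interaction with limma, the adjusted p over 11634 genes was 0.354, 0.307 and 0.577, so none of the 3 passed. For Cdkn1a the value came mostly from HFD (1.46, against -0.42 on CD), for Trp53inp1 more from CD (-0.83, against 0.57 on HFD) and for Ccnd1 more from CD (-0.56, against 0.23). With each library left out in turn it ran from 1.63 to 2.13 for Cdkn1a, from 1.16 to 1.64 for Trp53inp1 and from 0.46 to 1.11 for Ccnd1, whose lowest value was the one without f/f CD 2. The value of Trp53inp1 passed without f/f HFD 1 (adjusted p 0.0136). Of the Kupffer cell and macrophage markers, 8 of 8 tested were above 0 for LKO against f/f on HFD and 1 of 8 on CD. Over all 11634 genes these numbers were 5718 and 5717. On HFD the LKO libraries lay above both f/f libraries for 4 of the 8 markers, against 19.1% of all genes. The median difference of the markers was 0.64 (0 passing and 3 at an unadjusted p under 0.05, against 8.35% of all genes). Their part was not tested. Both diets' comparisons were made within the same fit, and the 3 genes were among 10 chosen with results of these libraries known.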

How the results depend on the processing

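Of 417 values of the 8 genes tested under settings other than leaving out a library, 407 moved by less than the spread between replicates. Of the rest, 10 moved by more, and 0 changed sign where called. Gadd45b and Phlda3, under the filter, were not part of this count. Unadjusted counts of the 8 genes moved beyond 1.5 times once: on CD between genotypes, 1 gene in place of 3 with no filter or with only the libraries compared. With no filter (FPKM above 0 in at least 1 library), 3 of the 8 genes in place of 5 passed for diet averaged over genotypes, 1 in place of 2 in LKO livers and 1 in place of 2 in f/f livers. In fits of only the libraries compared, 0 of the genes passed for diet in either genotype, and without the trend 1 in place of 2 passed in f/f livers. The cause was not tested.

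Counts of list genes that passed moved as follows: with no filter 9 in place of 17 for diet averaged over genotypes, 3 in place of 7 in LKO livers and 1 in place of 3 in f/f livers; with only the libraries compared 0 in both; without the trend 1 in f/f livers and 1 between genotypes on CD; with FPKM above 1 in all 8 libraries 5 in f/f livers and 3 for genotype averaged over diets.

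Over all genes, no filter gave 704 calls in place of 1151 for diet averaged over genotypes, 135 in place of 351 in LKO, 46 in place of 155 in f/f, 28 in place of 12 for genotype averaged, 10 in place of 2 on CD, 24 in place of 5 on HFD and 19 in place of 4 for the difference. FPKM above 1 in all 8 libraries gave 570 in LKO, 323 in f/f, 50 for genotype averaged, 7 on CD and 0 for the difference. Without the trend there were 229 in LKO, 42 in f/f and 4 on CD, with only the libraries compared 0 in LKO, 5 in f/f and 0 on CD, with a pseudocount of 0.1 there was 1 on CD and 2 for the difference, and with no normalization 7 for genotype averaged.

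Leaving out 1 library at a time, the genes of the 8 that passed numbered 2 to 4 for diet averaged over genotypes, 0 to 2 in LKO, 0 to 2 in f/f, 0 to 1 for the difference, and 0 for genotype on HFD, on CD and averaged. Their unadjusted counts were 5 to 7, 2 to 4, 4 to 6, 2 to 4, 2 to 3 on HFD, 1 to 3 on CD and 0 to 4 averaged over diets. List genes that passed numbered 5 to 13 for diet averaged, 1 to 5 in LKO, 0 to 2 in f/f and 0 for the 4 genotype comparisons. Over all genes the calls were 374 to 816 for diet averaged, 21 to 154 in LKO, 14 to 49 in f/f, 13 to 30 for genotype averaged, 2 to 19 on CD, 4 to 21 on HFD and 10 to 21 for the difference.

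Replicate numbers do not pair the libraries: deviations of same-numbered libraries had r from -0.00 to 0.149 over 6 pairs of groups, not all above 0.1, and the labels tie no number to a shared litter or day. With that number entered as a block, 223 genes passed for diet in LKO and 34 in f/f livers, and 1 of the 8 genes in f/f livers, where Gadd45g no longer passed. With 2 libraries per group and no read counts, small differences of genes under 1 FPKM could not be resolved.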
